A study of Mus musculus with 18 samples.

Results

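The Kcn genes encode the pore-forming and auxiliary subunits of potassium channels. They were chosen as the protein-coding gene symbols that start with Kcn in a table of reads per transcript accession from mouse brain, with the accession holding the most counts standing for each gene. This gave 94 genes of the 21219 protein-coding genes in the table, spread over 467 of its 106519 rows. By symbol, 40 are voltage-gated pore subunits (Kcna, Kcnb, Kcnc, Kcnd, Kcnf, Kcng, Kcnh, Kcnq, Kcns and Kcnv), 15 are inward rectifiers (Kcnj), 14 are two-pore leak channels (Kcnk) and 8 are calcium- or sodium-activated (Kcnma1, Kcnn, Kcnt and Kcnu1). The other 17 are auxiliary subunits (Kcnab, Kcne, Kcnip, Kcnmb and Kcnrg).

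The samples were brains of male C57BL/6 mice aged 8 weeks, 3 with a knockout (KO) of Ftsj1 and 3 wild-type (WT), with no treatment. The product of Ftsj1, which lies on chromosome X, adds methyl groups to certain transfer RNAs, among them the one for phenylalanine. How the knockout allele was made is not given in the sources used here. Each mouse gave a library of ribosome-contained mRNA fragments (ribosome footprints) and a library of total polyadenylated mRNA, so each genotype and library kind had 3 animals.

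Potassium channels let potassium ions leave or enter a cell along their gradient, which sets the resting potential and ends the action potential. Voltage-gated subunits assemble as tetramers that shape firing, inward rectifiers and two-pore channels hold the membrane near rest, and calcium-activated channels slow repeated firing. Auxiliary subunits carry no pore and change the trafficking or the gating of the pore subunits they bind. In brain the family is known for dividing labour between axons, dendrites and glia.

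The feature that the pore-forming families share is the selectivity filter, a short loop that lines the pore and strips water from potassium ions. The rule that chose the genes used symbols only and read no sequence. Symbols follow gene families, though, and families are grouped by likeness of sequence. The search therefore describes the families and is no independent test of them. Coding sequences of the GENCODE M21 transcripts (build GRCm38) paired with the RefSeq accessions were searched in frame, on the coding strand, for 2 patterns of 15 bases. The narrow pattern was ACNNTNGGNTANGGN, and the wide pattern NCNNTNGGNTNNGGN includes every match of the narrow one. The windows below are from genes named in the results. Each runs 5′ to 3′ on the coding strand over 45 bases of 1 coding exon, and the capitals mark the motif.
Kcna1 (chr6:126642213-126642257, minus strand): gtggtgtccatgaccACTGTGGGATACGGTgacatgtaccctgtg
Kcna3 (chr3:107037596-107037640, plus strand): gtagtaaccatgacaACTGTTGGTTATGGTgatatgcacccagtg
Kcna5 (chr6:126533730-126533774, minus strand): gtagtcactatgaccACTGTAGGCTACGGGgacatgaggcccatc
Kcnc1 (chr7:46427958-46428002, plus strand): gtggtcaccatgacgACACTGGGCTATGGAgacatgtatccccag
Kcnf1 (chr12:17175046-17175090, minus strand): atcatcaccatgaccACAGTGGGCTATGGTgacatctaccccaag
Kcns1 (chr2:164164839-164164883, minus strand): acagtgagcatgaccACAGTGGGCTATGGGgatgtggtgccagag
Kcns2 (chr15:34839597-34839641, plus strand): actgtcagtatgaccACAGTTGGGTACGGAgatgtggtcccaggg
Kcnh5 (chr12:75087451-75087495, minus strand): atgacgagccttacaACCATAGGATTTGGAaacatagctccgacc
Kcnj2 (chr11:111072192-111072236, plus strand): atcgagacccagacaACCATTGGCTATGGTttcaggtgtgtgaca
Kcnj13 (chr1:87389006-87389050, minus strand): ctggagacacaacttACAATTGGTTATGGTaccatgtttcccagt
Kcnk3 (chr5:30622187-30622231, plus strand): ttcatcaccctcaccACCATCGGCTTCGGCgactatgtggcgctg
Kcnn3 (chr3:89645497-89645541, plus strand): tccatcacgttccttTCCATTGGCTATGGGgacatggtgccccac

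The wide pattern was found in 46 of the 52 pore-forming genes with a coding sequence (88.5%) and the narrow one in 35 of them. Among the 27562 other coding sequences, 2.82% held the wide and 0.283% the narrow pattern. These are counted per transcript and include further transcripts of some Kcn genes. None of the 12 auxiliary genes with a coding sequence (0 of 12) held either. Of 10 two-pore genes, named for having a pair of pore loops in 1 chain, 7 held the wide pattern at 2 places, Kcnk3 among them, and 1 of its places is printed. The 6 pore-forming genes without a match were Kcnh1, Kcnh2, Kcnh4, Kcnh8, Kcnk1 and Kcnk7, which says only that these letters are not in their coding sequences. Aligned at the motif, the Kcna1 window shared 35 of 45 bases with Kcna3, 33 with Kcnc1 and Kcnf1, and 32 with Kcna5. It shared 28 or 29 with the silent subunits Kcns2 and Kcns1, 22 or 23 with Kcnh5, Kcnj2, Kcnj13 and Kcnk3, and 19 with Kcnn3. Part of this sharing is fixed by the motif itself.

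Library totals ran from 1055741 to 1142062 counts in KO and from 1165451 to 1560192 in WT for ribosome-contained mRNA. For total mRNA they ran from 3301634 to 3459406 in KO and from 2024748 to 3302937 in WT. Ftsj1 (chromosome X, 8238668 to 8252406, GRCm38) had 0 counts in both of its accessions in every one of the 12 libraries, so the knockout could not be checked here. Markers of neurons were measured, with a summed level of 10168 to 10391 CPM (counts scaled to a library size of 1e6) in KO and 10066 to 10392 in WT total mRNA. Slc17a7 made up most of that sum, at 5998 CPM in KO and 5926 in WT, while Syt1 and Gad1 had 1 and 20 counts. Of 8 neuron markers tested in total mRNA, 4 had a log2 fold change above 0 and 0 passed. Nefm had the lowest adjusted p, at a log2 fold change of −0.17 (adjusted p = 0.220, edgeR). Several defining glial and regional markers had 0 counts, among them Mag of oligodendrocytes, Csf1r and Aif1 of microglia and Pcp2 and Gabra6 of the cerebellum, so those cell types could not be followed by them. Other markers of these were tested in total mRNA, and 0 passed. Of 4 oligodendrocyte markers 2 had a log2 fold change above 0, and Mbp stood at −0.22 (adjusted p = 0.141, edgeR). Cx3cr1 of microglia stood at 0.38 and Cbln1 of the cerebellum at 0.21. Choroid plexus markers, of which Ttr passed the KO against WT test, are given beside Kcnj13.

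Of the 94 Kcn genes, 78 had at least 1 count and 16 had none. Among those at 0 were Kcne1, Kcne3, Kcng1, Kcnh1, Kcnip1, Kcnj1, Kcnj5, Kcnj8, Kcnj9, Kcnj15, Kcnn1, Kcnn4, Kcnrg, Kcnt2 and Kcnu1. Kcnma1, the large-conductance calcium-activated channel, has 51 accessions and 37 counts in all on the row that stands for it. How reads that fit several accessions were treated is not given in the sources used here, so a low count of such a gene sets no limit on its expression. For Kcne1, Kcng1, Kcnj8 and Kcnj9, which have 1 accession each, 0 counts of 18518637 in total mRNA allows up to 0.162 CPM. That limit is 3 counts and covers counting error only.

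Tests ran on rows that passed a filter on low counts. In total mRNA 41 Kcn genes passed, in ribosome-contained mRNA 27 and in both 26, with the inward rectifier Kcnj16 passing in ribosome-contained mRNA alone. Another 36 had counts, at most 99 over the 12 libraries, and were tested in neither. The share that passed in total mRNA was lower with more accessions per gene, being 18 of 29 genes with 1 accession (62.1%), 8 of 17 with 2 (47.1%) and 15 of 48 with 3 or more (31.2%). Over all protein-coding genes the same shares were 40.8%, 28.3% and 16.05%. By family, 20 voltage-gated, 8 inward-rectifier, 5 two-pore, 2 calcium- or sodium-activated and 6 auxiliary genes were tested in total mRNA. In ribosome-contained mRNA these numbers were 13, 6, 4, 1 and 3.

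Voltage-gated genes held 66.1% of the Kcn counts in ribosome-contained mRNA and 72.8% in total mRNA. Levels of different genes are compared here only per kilobase of transcript and only among the 18 tested genes with 1 accession and a known length. In total mRNA the order was led by Kcna1, an axonal delayed rectifier whose human counterpart is mutated in episodic ataxia, at 156 ± 7.94 CPM per kb in KO and 161 ± 3.47 in WT (SD, n = 3 each). Kcnd2, a pore subunit of the dendritic A-type current, followed at 82.1 ± 5.11 in KO and 80.9 ± 3.47 in WT. Next came Kcnk3, an acid-sensitive leak channel, at 67.9 ± 2.33 in KO and 69.0 ± 4.85 in WT, and Kcnf1, an electrically silent subunit that modifies Kcnb channels, at 63.3 ± 3.62 in KO and 69.4 ± 5.15 in WT. Kcnk3 and Kcnf1 did not differ beyond their spread. Kcnn3, a small-conductance calcium-activated channel, stood at 40.5 ± 2.48 in KO and 37.9 ± 2.85 in WT. Below these, Kcnk12, Kcna3, Kcnj2, Kcns1 and Kcnab3 lay between 13.8 and 28.4 in KO and between 17.1 and 29.5 in WT. The lowest were Kcne4, Kcnk6 and the voltage-gated Kcnh8, at 1.28 to 2.69 in KO and 0.845 to 3.49 in WT.

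**Figure D1:**
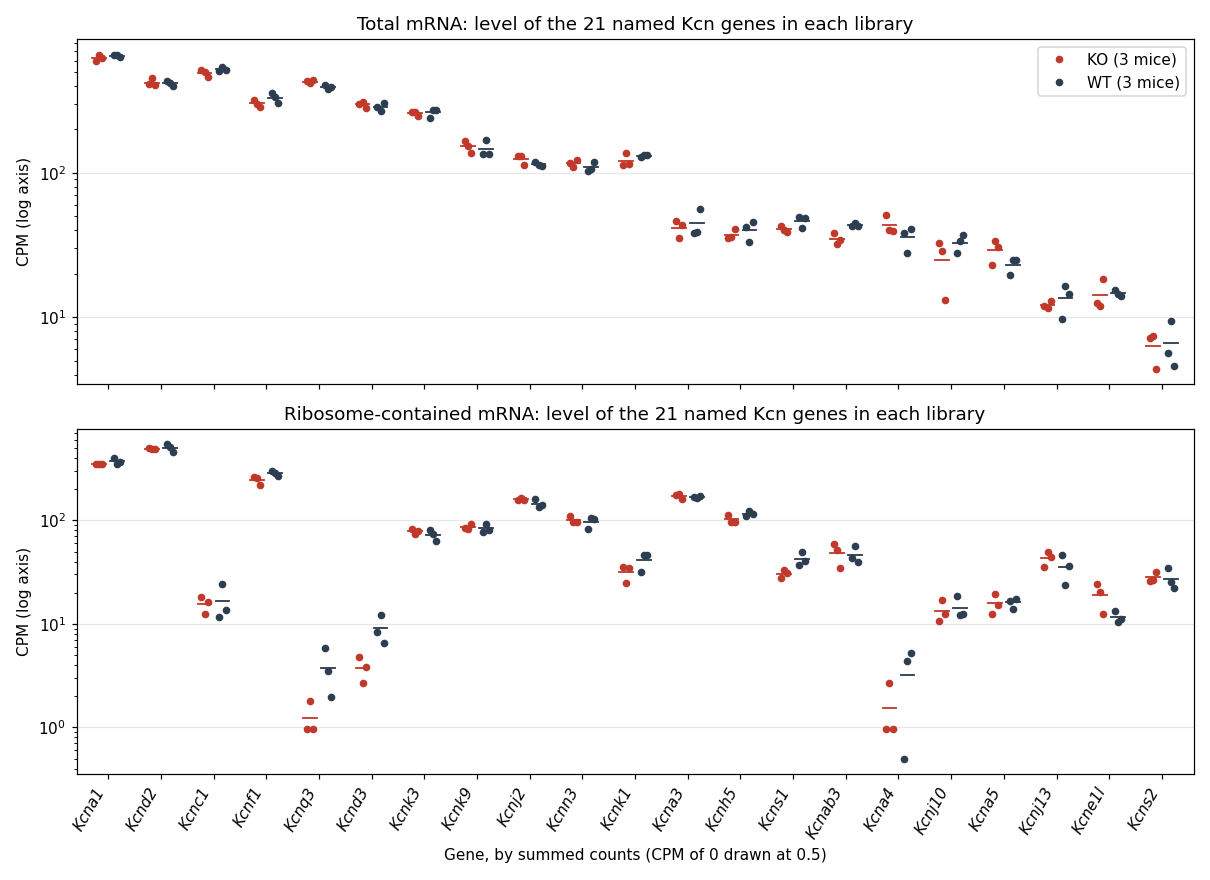
Level in CPM (log axis) of the 21 named Kcn genes in each library, total mRNA above and ribosome-contained mRNA below, with 3 KO mice left of 3 WT mice and a bar at each mean. KO and WT points lie close for most genes, while Kcnc1, Kcnq3, Kcnd3 and Kcna4 stand far lower in the lower panel than in the upper one.

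The comparison of KO with WT asked whether loss of Ftsj1 changed the mRNA of the channel genes. In total mRNA no Kcn gene passed the test at an adjusted p of 0.05 (0 of 41, lowest adjusted p = 0.515, Benjamini-Hochberg over all rows, edgeR quasi-likelihood test), where 0.329% of all rows tested did. At an unadjusted p under 0.05 there were 4 of 41 (9.76%), against 8.15% of all rows. The summed level of all 94 genes was 4096 ± 125 CPM in KO and 4121 ± 17.1 CPM in WT (SD, n = 3 each). The median log2 fold change of the tested genes was 0.00695, with 21 above 0 and 20 below, and that of all rows was 0.00887. In whole-brain RNA, fewer cells of a type and less RNA per cell cannot be told apart.

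The 5 lowest p values in total mRNA belonged to voltage-gated subunits and 1 auxiliary subunit. Kcnab3, a cytoplasmic beta subunit that binds Kcna channels, had 38.5, 32.2 and 34.2 CPM in KO mice and 42.8, 44.7 and 42.6 CPM in WT mice. Each KO value lay below each WT value. Its log2 fold change was −0.31 (95% interval −0.57 to −0.04, adjusted p = 0.515, edgeR). Kcnq3, a subunit of the muscarine-sensitive current that limits repeated firing, had 431, 418 and 440 CPM in KO mice and 409, 382 and 391 CPM in WT mice. Here all KO values lay above all WT values, by a log2 fold change of 0.12 (95% interval 0.02 to 0.23, adjusted p = 0.515, edgeR). Kcnq3 overlaps the lncRNA gene Gm27242, and the row counted is a predicted transcript.

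Kcnf1 had 322, 301 and 287 CPM in KO total mRNA and 355, 336 and 306 CPM in WT total mRNA. The groups overlapped, since the highest KO value stood above the lowest WT value. Its log2 fold change was −0.13 (95% interval −0.25 to −0.01, adjusted p = 0.555, edgeR). Kcna5, a delayed rectifier best known from the heart, had 22.8, 33.4 and 30.7 CPM in KO mice and 19.5, 24.8 and 24.9 CPM in WT mice. Its groups overlapped as well, with a log2 fold change of 0.34 (adjusted p = 0.610, edgeR). For Kcna4, an axonal channel that inactivates fast, the levels were 51.3, 40.5 and 39.5 CPM in KO mice and 38.4, 27.8 and 41.0 CPM in WT mice. Only 1 KO mouse lay above all WT mice, and the log2 fold change was 0.26 (adjusted p = 0.636, edgeR). It was 0.13 without KO replicate 1 and 0.14 without WT replicate 2.

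Kcna1, the Kcn gene with the most counts, had 597, 661 and 627 CPM in KO total mRNA and 657, 653 and 631 CPM in WT total mRNA. These ranges overlapped, and the log2 fold change was −0.04 (95% interval −0.14 to 0.06, adjusted p = 0.873, edgeR). Kcnd2 averaged 423 ± 26.3 CPM in KO and 417 ± 17.9 in WT, and Kcnc1, the delayed rectifier of fast-spiking neurons, 494 ± 29.9 in KO and 523 ± 19.0 in WT. The A-type subunit Kcnd3 averaged 298 ± 14.4 CPM in KO and 286 ± 18.8 in WT, and the leak channels Kcnk3 and Kcnk9 259 ± 8.88 and 152 ± 15.4 in KO and 263 ± 18.5 and 146 ± 19.1 in WT. Kcnj2, a strong inward rectifier, averaged 125 ± 10.3 CPM in KO and 115 ± 3.55 in WT.

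Groups did not overlap for 3 of the 41 genes in total mRNA (7.32%), against 13.3% of all rows. They were Kcnab3, Kcnq3 and the inward rectifier Kcnj11, the pore of the ATP-sensitive channel, which is named after its values were seen. Kcnj11 had 11.6, 12.3 and 14.3 CPM in KO mice and 8.82, 11.4 and 8.53 CPM in WT mice. Kcnd1, an A-type subunit chosen because it lies 400 kb from Ftsj1 on chromosome X, had 42.4, 50.0 and 50.0 CPM in KO mice and 56.4, 45.2 and 49.9 CPM in WT mice. Its groups overlapped.

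**Figure D2:**
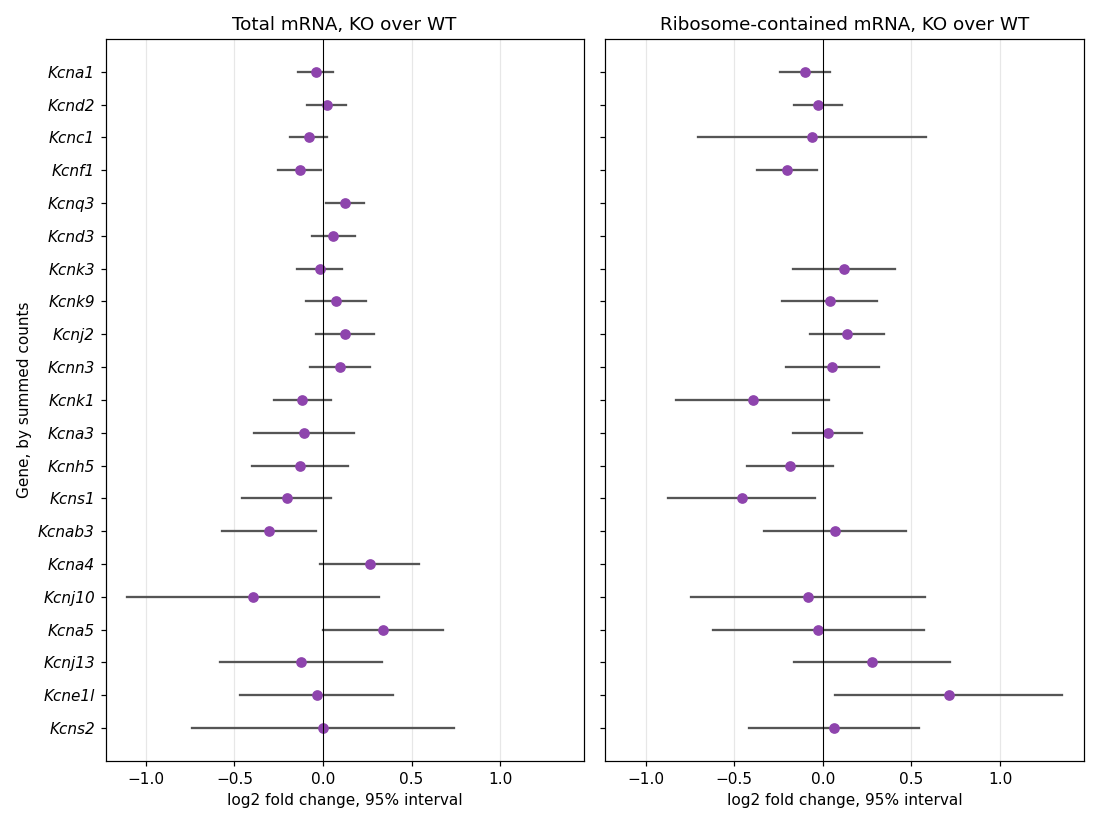
Log2 fold change, KO over WT, of the 21 named Kcn genes with its 95% interval from the edgeR model, in total mRNA (left) and ribosome-contained mRNA (right). The interval leaves out 0 for Kcnf1, Kcnq3, Kcnab3 and Kcna5 on the left and for Kcnf1, Kcns1 and Kcne1l on the right, none with an adjusted p under 0.05; rows below the count filter have no point.

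In ribosome-contained mRNA no Kcn gene passed either (0 of 27, lowest adjusted p = 0.401, edgeR), where 0.211% of all rows tested did. An unadjusted p under 0.05 was found for 3 of 27 (11.1%), against 9.48% of all rows. All 94 genes summed to 2505 ± 69.3 CPM in KO and 2591 ± 122 CPM in WT (SD, n = 3 each). The median log2 fold change was 0.0264, with 14 genes above 0 and 13 below, and the median of all rows was 0.000155.

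Kcnf1 had the lowest p among the channel footprints, at 262, 258 and 222 CPM in KO mice and 298, 289 and 269 CPM in WT mice. All KO values lay below all WT values. The log2 fold change was −0.20 (95% interval −0.37 to −0.04, adjusted p = 0.401, edgeR). Kcns1, another electrically silent subunit, had 28.0, 33.0 and 30.7 CPM in KO mice and 37.0, 49.7 and 40.2 CPM in WT mice. Its groups did not overlap, and the log2 fold change was −0.46 (95% interval −0.87 to −0.05, adjusted p = 0.459, edgeR). In total mRNA Kcns1 had 42.7, 40.5 and 39.2 CPM in KO mice and 49.1, 41.7 and 48.9 CPM in WT mice, which overlapped, with a log2 fold change of −0.20 (adjusted p = 0.714, edgeR). Kcns1 overlaps the lncRNA gene LOC115486434.

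Kcne1l, an X-linked single-span auxiliary subunit, had 24.1, 20.5 and 12.5 CPM of footprints in KO mice and 13.5, 10.5 and 11.03 CPM in WT mice. A pair of KO mice lay above all WT mice and the remaining one among them. The log2 fold change of 0.71 had a 95% interval of 0.07 to 1.35 (adjusted p = 0.459, edgeR). In total mRNA its level was 14.3 ± 3.59 CPM in KO and 14.6 ± 0.701 in WT. For Kcnk1, a weakly conducting leak channel, the footprints came to 35.7, 24.95 and 34.6 CPM in KO mice and 31.9, 46.2 and 46.1 CPM in WT mice, which overlapped (log2 fold change −0.40, adjusted p = 0.568, edgeR). Kcnh5, of the ether-a-go-go family, had 114, 96.2 and 96.0 CPM in KO mice and 110, 124 and 114 CPM in WT mice. Its groups overlapped too (log2 fold change −0.18, adjusted p = 0.679, edgeR).

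Groups did not overlap for 4 of the 27 genes in ribosome-contained mRNA (14.8%), against 14.7% of all rows. Besides Kcnf1 and Kcns1 these were Kcna1 and Kcnj16. Kcna1 had 349, 351 and 347 CPM in KO mice and 402, 354 and 368 CPM in WT mice, so the highest KO and the lowest WT value stood close together. Kcnj16, which pairs with Kcnj10 in glia and is named after its values were seen, had 20.3, 16.04 and 17.3 CPM in KO mice and 15.97, 14.8 and 12.3 CPM in WT mice, so the lowest KO and the highest WT value all but touched.

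Some rows with many total mRNA counts gave too few footprints to be tested. Kcnd3 had 5, 3 and 4 footprint counts in KO mice and 10, 14 and 10 in WT mice, and its groups did not overlap in CPM either, at 2.67 to 4.82 in KO and 6.49 to 12.2 in WT. These counts are few, and the bases that only this transcript holds include 0 coding ones, as given below. The gap is therefore not read as a change in the translation of Kcnd3. The row that stands for Kcnq3 had 1, 2 and 1 counts in KO mice and 7, 4 and 3 in WT mice. Another accession of Kcnq3, a noncoding transcript model, had 41, 50 and 47 footprint counts in KO mice and 43, 48 and 64 in WT mice, so the difference in the first row does not speak for the gene. With no filter on low counts, the log2 fold change in ribosome-contained mRNA was −1.22 for Kcnd3 and −1.48 for the first row of Kcnq3, with an adjusted p of 0.705 each (edgeR). At that setting 6 of 66 Kcn genes had an unadjusted p under 0.05 in ribosome-contained mRNA, against 3.70% of 19160 rows, and 0 passed. In total mRNA these were 3 of 77, against 3.98% of 29955 rows. For translation efficiency they were 3 of 65, against 4.32% of 18026 rows, and 0 passed in either.

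Translation efficiency, a gene's footprints relative to its mRNA, was compared between the genotypes in 1 model of the 12 libraries. No Kcn gene passed (0 of 26, lowest adjusted p = 0.960, edgeR), nor did any of the 4601 rows tested (0.0%). An unadjusted p under 0.05 was found for 0 of 26 Kcn genes, against 4.96% of all rows, and DESeq2 called 0 as well. The lowest p belonged to Kcne1l, with a log2 difference of 0.75 (95% interval −0.01 to 1.504, adjusted p = 0.960, edgeR). Kcnab3, whose footprints averaged 48.4 ± 12.5 CPM in KO and 46.6 ± 8.90 in WT, followed at 0.37 (adjusted p = 0.965, edgeR). Kcnk1 stood at −0.29, Kcnj13 at 0.40 and Kcns1 at −0.26, with adjusted p from 0.986 to 0.998 (edgeR). Single mice moved these values, with Kcnk1 at −0.06 without KO replicate 2, Kcnj13 at 0.05 without WT replicate 2 and 0.82 without WT replicate 1, and Kcns1 at −0.09 without WT replicate 2. Kcne1l stood at 0.47 without KO replicate 1 and at 1.19 without KO replicate 3.

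Kcnj13, an inward rectifier known from the choroid plexus and the retinal pigment epithelium, had footprints of 35.7, 49.0 and 44.2 CPM in KO mice and 46.2, 23.5 and 36.3 CPM in WT mice. In total mRNA it had 11.9, 11.7 and 12.9 CPM in KO mice and 9.76, 16.4 and 14.4 CPM in WT mice, and the groups overlapped in both kinds. Its row overlaps the protein-coding gene Gigyf2. Summed choroid plexus markers did not overlap between the genotypes. Ttr alone made up most of that sum, at 6578 ± 356 CPM in KO and 4937 ± 284 in WT ribosome-contained mRNA (SD, n = 3 each). No other marker of the choroid plexus passed the KO against WT test in either kind. Of 6 markers, 5 could be tested and all 5 had a log2 fold change above 0 in both kinds, while Folr1 had 0 counts. The sum was 6564 to 7331 CPM in KO and 4963 to 5521 CPM in WT ribosome-contained mRNA. In total mRNA the sum was 2896 to 2931 CPM in KO and 2319 to 2560 CPM in WT. Of them Ttr, the carrier of thyroxine in cerebrospinal fluid, passed the test, with a log2 fold change of 0.41 in ribosome-contained mRNA (adjusted p = 3.7e-06, edgeR) and 0.26 in total mRNA (adjusted p = 0.000492, edgeR). Whether the amount of choroid plexus in the samples bears on Kcnj13 was not tested.

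Kcnj10, the main inward rectifier of astrocytes, had 10.6, 16.9 and 12.5 CPM of footprints in KO mice and 18.5, 12.2 and 12.3 CPM in WT mice. In total mRNA it had 32.9, 28.8 and 13.2 CPM in KO mice and 27.7, 33.7 and 37.1 CPM in WT mice. The KO mouse at 13.2 CPM stood apart, and the groups overlapped in both kinds. Astrocyte markers summed to 2075 to 2276 CPM in KO and 2059 to 2159 CPM in WT total mRNA, which overlapped. Slc1a3 and Gja1 made up most of that sum, and single markers went different ways. Among 4 tested in total mRNA 0 passed, and only Slc1a3 was higher in KO, with a log2 change of 0.19 (adjusted p = 0.220, edgeR). Gfap, Slc1a2 and Gja1 stood at −0.09, −0.26 and −0.07. For footprints Slc1a3 likewise stood at 0.19, while 2 of 4 markers lay above 0 and 0 passed. Whether the amount of astrocytes differed was not tested.

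How far these tests could see is given by their intervals. In total mRNA the 95% interval lay within a 1.5-fold change either way for 28 of 41 genes, and in ribosome-contained mRNA for 14 of 27. In translation efficiency it did so for 12 of 26. For the remaining genes a change of that size lay within the interval, so it was not bounded at this depth.

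Ribosome-contained and total mRNA of the same mice were then compared, averaged over the genotypes, which asks how far a gene's share of footprints departs from its share of mRNA. Of 26 Kcn genes 20 passed (76.9%), against 80.3% of all rows, so passing was common throughout. Lower in ribosome-contained mRNA were 13, where 39.8% of all rows were called lower, and higher were 7, where 40.4% were called higher. The median log2 ratio was −0.30 for Kcn genes, with 9 above 0 and 17 below, and 0.0170 for all rows. A log2 ratio under −2 was found for 3 of 26 Kcn genes, against 5.24% of all rows.

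Among the 26 genes tested in both kinds, the lowest ratio belonged to Kcnc1. It had 18.3, 12.5 and 16.3 CPM in KO and 11.8, 24.4 and 13.6 CPM in WT ribosome-contained mRNA, and 520, 501 and 461 CPM in KO and 507, 544 and 519 CPM in WT total mRNA. The kinds lay far apart in each mouse, with a log2 ratio of −5.32 (95% interval −5.50 to −5.15, adjusted p = 1.04e-39, edgeR). All 4 two-pore genes tested were lower in ribosome-contained mRNA. Kcnk3 had 83.0, 73.1 and 78.7 CPM in KO and 80.7, 74.1 and 62.9 CPM in WT ribosome-contained mRNA, against 265, 263 and 248 CPM in KO and 242, 275 and 272 CPM in WT total mRNA (log2 ratio −2.13, adjusted p = 2.12e-30, edgeR). Kcnk1 stood at −2.14 (adjusted p = 2.06e-24, edgeR). Kcnj10 was lower by a log2 ratio of −1.38, Kcna1 by −1.15 and Kcnf1 by −0.59, with adjusted p at or under 5.05e-05 (edgeR).

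The highest ratios among the 26 belonged to other voltage-gated genes and to Kcnj13. Kcna3, a delayed rectifier best known from T lymphocytes, had 175, 181 and 159 CPM in KO and 167, 165 and 173 CPM in WT ribosome-contained mRNA. In total mRNA it had 46.2, 35.6 and 43.5 CPM in KO and 38.4, 39.2 and 56.4 CPM in WT, so the kinds did not overlap (log2 ratio 1.63, adjusted p = 1.81e-21, edgeR). The silent subunit Kcns2 reached 1.79 (adjusted p = 2.51e-11), Kcnj13 1.29 (adjusted p = 6.24e-10) and Kcnh5 1.14 (adjusted p = 2.52e-15, all edgeR). Kcns2 overlaps the lncRNA gene Gm32970. Kcnd2, with 493 ± 6.31 CPM in KO and 503 ± 42.7 CPM in WT ribosome-contained mRNA, lay next to 0 at −0.09 (adjusted p = 0.0486, edgeR). That call did not hold under 8 of 12 alternatives, and with no filter on low counts the value was 0.0253 (adjusted p = 0.715, edgeR).

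**Figure D3:**
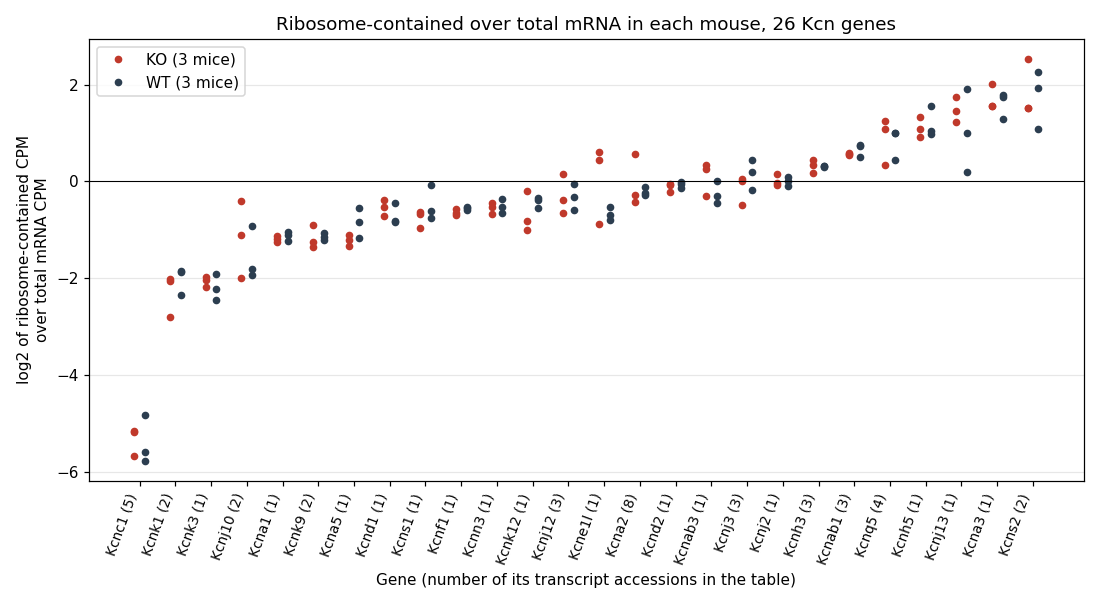
Log2 ratio of ribosome-contained CPM to total mRNA CPM in each mouse (3 KO left of 3 WT) for the 26 Kcn genes tested in both kinds, in order of the ratio, with the number of accessions of each gene in brackets. The ratio of Kcnc1 lies between −5.66 and −5.14 in KO and between −5.76 and −4.81 in WT, below every other gene tested, while that of Kcna3 lies between 1.55 and 2.01 in KO and between 1.28 and 1.79 in WT.

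Very low footprint shares went with the number of accessions of a gene. Each Kcn gene entered by 1 row, the one with most counts, where that row had at least 100 total mRNA counts. The ribosome-contained share was under 1 in 16 of the total mRNA share for 7 of 20 genes with 2 or more accessions (35.0%) and for 0 of 17 with 1 accession. Most counts were total mRNA, so where a gene has several accessions this choice favours rows rich in total mRNA. Part of the difference may follow from the choice alone. Over all protein-coding rows with as many counts the shares were 32.4% of 2009 and 2.19% of 3420. There a gene could enter by several rows, so the units are not the same as for the Kcn genes. The rows of these 7 genes were those of Kcnq3 with 18 footprint counts and 7585 total mRNA counts, Kcng3 with 2 and 654, Kcnd3 with 46 and 5374, Kcnj6 with 4 and 378, Kcnc1 with 113 and 9255, Kcnc4 with 5 and 331, and Kcna4 with 18 and 743. For some of these genes another accession had a higher footprint share, with 293 footprint counts and 374 total mRNA counts for 1 of Kcnq3 and 116 and 185 for 1 of Kcna4. Another of Kcnj6 had 0 footprint counts and 246 total mRNA counts. No other accession of Kcnd3, Kcnc1 or Kcnc4 had a count. For Kcnd3, whose 2 accessions are both in GENCODE, 5124 of the 7169 bases of the counted transcript lie in no other accession, 4693 of them after the stop codon, 431 before the start and 0 in the coding part. Kcns2 went the other way. Its counted transcript likewise holds 680 bases in no other accession, 182 after the stop codon, 498 before the start and 0 coding, yet it had 194 footprint counts and 114 total mRNA counts. Whether reads shared between accessions were left out of the counts was not tested.

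Among genes with a known transcript, the ratio also went with the coding share, the percent of the transcript that is coding. Kcnj13 (85.0% coding), Kcna3 (83.3%) and Kcnh5 (73.0%) had high ratios, while Kcnc1 (19.8%), Kcnj10 (21.03%), Kcnk3 (32.2%) and Kcna1 (36.8%) had low ones. Kcns2, at 26.2% coding, had the highest ratio of the genes tested and Kcnn3, at 76.1%, a ratio below 0, so the order was loose. Across 22 Kcn genes Pearson r was 0.462 and Spearman rho 0.337. In the 15 with 1 accession r was 0.596 and rho 0.357, and over 3991 rows r was 0.288 and rho 0.314. These values run across genes of the same libraries, which are not independent replicates.

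**Figure D4:**
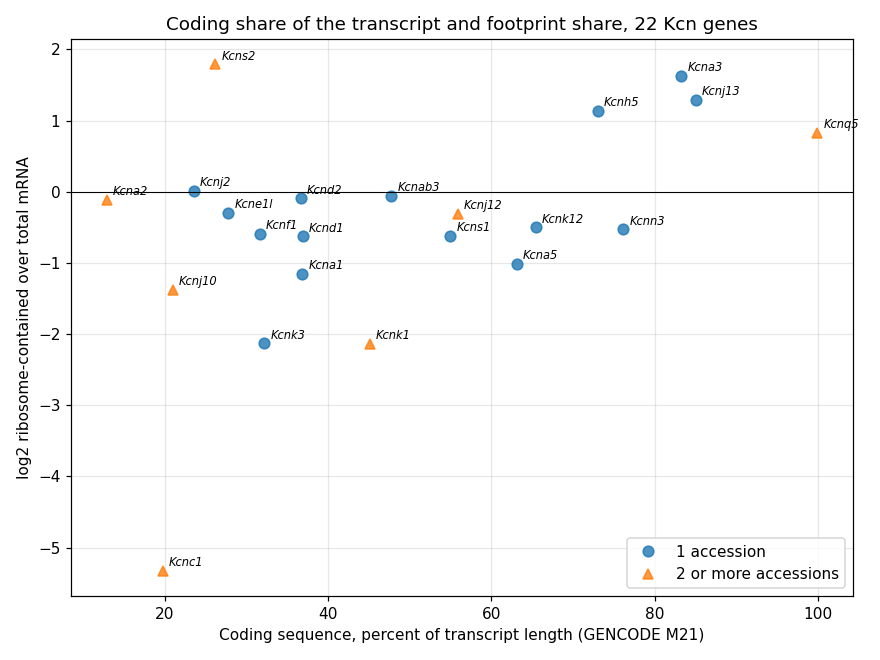
Coding sequence as a percent of transcript length against the log2 ratio of ribosome-contained to total mRNA for 22 Kcn genes, with circles for genes with 1 accession and triangles for 2 or more. Kcnj13 and Kcna3, above 80% coding, lie above a ratio of 1, and Kcnc1, at 19.8%, lies lowest.

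Codons for phenylalanine, read by the transfer RNA that Ftsj1 modifies, were counted because channel subunits are rich in membrane-spanning segments. Among 23 Kcn genes tested in ribosome-contained mRNA with a coding sequence, the median was 5.58% of codons, against 3.63% over 4064 rows, and 20 of the 23 lay above that value. They ran from 1.40% in Kcne1l to 8.63% in Kcnk1, with Kcna3 at 7.20%, Kcna1 at 7.07% and Kcnab3 at 1.73%. Across these 23 genes, the phenylalanine share and the log2 fold change in ribosome-contained mRNA had a Pearson r of −0.455 and a Spearman rho of −0.201. Without Kcne1l, which has the lowest share and the highest fold change, r was −0.189 and rho −0.0864 over 22 genes. Over the 4064 rows r was 0.0157 and rho 0.0256. In total mRNA r was 0.0692 and rho 0.0125 across 31 Kcn genes. For translation efficiency r was −0.495 and rho −0.134 across 22 Kcn genes, and −0.259 and −0.00390 across 21 without Kcne1l. The sign also turned with the measure. For TTT alone, as a percent of codons, r was 0.110 and rho 0.274 across the 23 genes in ribosome-contained mRNA.

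Proteins that bind, anchor or cleave these channels, and other cation channels, were set beside the Kcn genes. Of 32 partner genes, among them Dpp6, Lgi1 and Cntnap2, 10 were tested in ribosome-contained mRNA and 14 in total mRNA, and 0 passed in either. Their median log2 fold change was −0.0340 with 4 above 0 in ribosome-contained mRNA, and −0.0412 with 3 above 0 in total mRNA. Of 41 sodium, calcium and hyperpolarization-activated channel genes, 12 were tested in ribosome-contained mRNA and 18 in total mRNA, and 0 passed. Their median log2 fold change was −0.0563 with 4 above 0 in ribosome-contained mRNA, and 0.0353 with 12 above 0 in total mRNA.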

How the data were processed

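For each of 12 HiSeq libraries the authors deposited unnormalized read counts per RefSeq accession (whole numbers, libraries named per the file headers). The submitters' processing notes name Bowtie2, HISAT2, HTSeq and mm10, without roles; the sources used here do not give strand use or the treatment of shared reads. The 6 MiSeq libraries were not used here. Accessions were matched to a RefSeq gene table (GRCm38.p6): 86027 rows matched, holding 86.2% of counts.

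All 106519 rows, 31089 of them with a count, entered edgeR 4.0.16 (R 4.3.3, limma 3.58.1; two-sided quasi-likelihood test, robust, TMM, minimum count 10, minimum total count 15), 6 libraries per kind. Translation efficiency and the ribosome-contained over total ratio came from 1 model of 12 libraries. Adjusted p-values are Benjamini-Hochberg over all rows tested. Correlations used scipy 1.17.1. The fits were tested on simulated data.

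Named genes are the 10 with most counts, the 5 lowest p in each KO comparison and the 4 highest and lowest ratios; the Kcn genes, lists and rules were chosen with earlier results of these data known. Both libraries of a mouse come from 1 animal per the labels; deviations correlated at 0.0267 to 0.155 across rows, and with the animal as a replicate block 0 Kcn genes passed for translation efficiency and 20 for the ratio. The alternatives were DESeq2 1.42.0, other size factors, filters of 0 and 30 counts, summed accessions, a replicate block and each mouse left out.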

Additional observations from a re-analysis of the deposited data

How the results depend on the processing

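Each comparison was recomputed under 12 alternatives. The number of Kcn genes that differed between KO and WT was 0 in total mRNA, in ribosome-contained mRNA and in translation efficiency under every one of them. Log2 fold changes were recomputed for the 5 genes of lowest p in each KO comparison, for Kcna1 and Kcns1 in total mRNA, and for the 4 highest and lowest ratios with Kcna1, Kcnd2 and Kcnf1. Where a setting gave a value, these kept their sign and their side of the threshold, except Kcnd2 in the ribosome-contained over total comparison, which turned to 0.0253 with no filter on low counts. That setting moved the median ratio of the rows tested in both by 0.117 on the log2 scale and called 35 of 65 Kcn genes, 9 higher and 26 lower, where 45.3% of rows were called (14.8% higher and 30.5% lower), against 20 of 26 with 80.3% of rows. At a minimum count of 30, Kcne1l, Kcnc1, Kcnj10 and Kcns2 gave no value in these comparisons. Without each mouse in turn the number was 19 to 20.

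KO and WT libraries of the same number share only a number in the labels, and their deviations correlated at −0.0724 to 0.0102 (total mRNA) and 0.0192 to 0.0278 (ribosome-contained mRNA). With the replicate block 0 Kcn genes were called, and the calls over all rows went to 32 in total mRNA and 48 in ribosome-contained mRNA, against 27 and 10. Without 1 mouse, calls over all rows ranged from 9 (KO replicate 1) to 42 (WT replicate 3) in total mRNA; for ribosome-contained mRNA they ranged from 4 (WT replicate 1) to 24 (KO replicate 2 or WT replicate 3); with no filter they were 43 and 27. Leaving out 1 mouse also moved several KO against WT values by more than 1.5 times, though none of these passed with any mouse left out. Beside those given above, Kcnf1 was −0.07 in total mRNA without WT replicate 1 and −0.13 in ribosome-contained mRNA without KO replicate 3, Kcna5 was 0.22 in total mRNA without KO replicate 2 or WT replicate 1, Kcnk1 was −0.25 in ribosome-contained mRNA without KO replicate 2, and Kcna1 ran from −0.08 to −0.01 in total mRNA. Kcnab3 was 0.25 in translation efficiency without WT replicate 3. Depth limits what can be said of 36 Kcn genes with counts that passed the filter in neither kind.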
